A study of Mus musculus with 6 samples.

Results

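Transcripts of the unfolded protein response and the integrated stress response were examined in muscle stem cells (MuSCs), the resident stem cells of skeletal muscle, that had been sorted from regenerating muscle. The set comprised 10 genes chosen by name, and each of the 10 was found once among the 49671 genes listed: the sensors Eif2ak3, Ern1, and Atf6, the transcription factors Atf4, Xbp1, and Ddit3, the feedback genes Ppp1r15a and Trib3, and the target genes Asns and Chac1. Libraries came from 3 mice treated with resolvin D1 (RvD1), a lipid mediator that promotes the resolution of inflammation, and from 3 vehicle-treated mice. All mice were female, wild-type C57BL/6 animals aged 4 to 6 months whose tibialis anterior (TA) muscles were injured on both sides by injection of barium chloride (50 μL at 1.2%). The RvD1 group received 100 ng of RvD1 by daily intraperitoneal injection in saline with 0.1% ethanol, and the vehicle group received 0.1% ethanol alone. The muscles were collected at day 3, and both TA muscles of a mouse were pooled into 1 library. The gate kept cells with β1-integrin and CXCR4 and discarded those with Sca-1, CD11b, Ter119, or CD45, and the sample labels add CD31 to the discarded markers. The design therefore compares RvD1 with vehicle after injury, and uninjured MuSCs were not analysed here.

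When unfolded proteins accumulate in the endoplasmic reticulum (ER), the membrane sensors PERK (encoded by Eif2ak3), IRE1α (encoded by Ern1), and ATF6 are released or activated. IRE1α excises a short intron from Xbp1 mRNA, ATF6 is cleaved to yield a transcription factor, and both pathways raise ER chaperones and degradation factors. PERK, together with kinases that sense amino acid shortage, heme shortage, or double-stranded RNA, phosphorylates the translation factor eIF2α, which slows general protein synthesis but favors translation of ATF4. ATF4 in turn drives genes of amino acid synthesis and, with CHOP (encoded by Ddit3), a feedback and cell death program. PERK and eIF2α phosphorylation are known from work in satellite cells as a brake on translation that helps to maintain quiescence. Splicing of Xbp1, cleavage of ATF6, and translation of ATF4 are not visible in counts per gene, so the values below are transcript levels only.

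Total expected counts were between 16148026 and 28149176 per library, with medians of 21368812 with RvD1 and 17779765 with vehicle. The sort was checked against marker genes on the TPM scale (transcript abundance scaled for length and library size). Myod1 was at 239 to 470 TPM, and Pax7 at 4.03 to 8.50 TPM. Myog, which encodes the myogenic factor myogenin and was the most abundant of the 12 myogenic markers, was at 818 to 1378 TPM. Ptprc, which encodes CD45, did not exceed 1.13 TPM, and the endothelial marker Pecam1 did not exceed 3.61 TPM. Other markers of cells outside the gate were higher. The leukocyte marker Lyz2 was at 17.55 to 61.06 TPM and Ly6a, which encodes Sca-1, at 17.25 to 39.72 TPM. Of the fibro-adipogenic markers, Dcn was at 182 to 450 TPM and Gsn at 221 to 555 TPM, but Pdgfra at 1.57 to 3.55 TPM. RvD1 replicate 1 stood apart. The summed level of 10 fibro-adipogenic markers was 1395 CPM (counts scaled for library size) in that library and 622 to 768 CPM in the other 5, and 16 dissociation and immediate early genes summed to 4633 CPM there against 3054 to 3423 CPM elsewhere. It was also the lowest library for 29.5% and the highest for 30.6% of all genes tested. Fold changes of all members and list medians were therefore also computed without it. Leukocyte markers were lower with RvD1 for 15 of the 16 tested (summed level 40.1 to 61.4 CPM against 57.7 to 97.6 CPM). The 10 endothelial markers had a median log2 fold change of -0.95 and summed to 16.5 to 34.3 CPM with RvD1 and 14.5 to 44.0 CPM with vehicle. The 12 myogenic markers summed to 4780 to 5605 CPM and 4542 to 5067 CPM, and the 6 erythroid markers to 3.19 to 30.8 CPM and 10.03 to 25.7 CPM. In bulk libraries, fewer cells of a type and less RNA per cell cannot be told apart.

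Levels of the 10 genes covered a wide range in these cells. Atf4 was the most abundant, at a mean of 303 TPM over the 6 libraries, followed by Ppp1r15a at 277 TPM. Their ranges overlapped (279 to 319 TPM and 233 to 329 TPM), so the order of the pair is not resolved. Xbp1 at 137 TPM and Asns at 114 TPM formed the next pair, with ranges that overlapped each other but lay below that of Ppp1r15a. Chac1 (38.0 TPM), Atf6 (34.2 TPM), and Ddit3 (33.1 TPM) were alike within their spread and apart from Asns. The sensors Eif2ak3 (6.87 TPM) and Ern1 (6.57 TPM) and the pseudokinase gene Trib3 (5.48 TPM) were lowest and also overlapped. Atf4 transcripts thus lay above 95.6% of the genes tested and Trib3 transcripts above 32.6%. The order was identical when FPKM replaced TPM. Within a library the 2 units differ only by a constant factor, so this is no independent check.

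**Figure D1:**
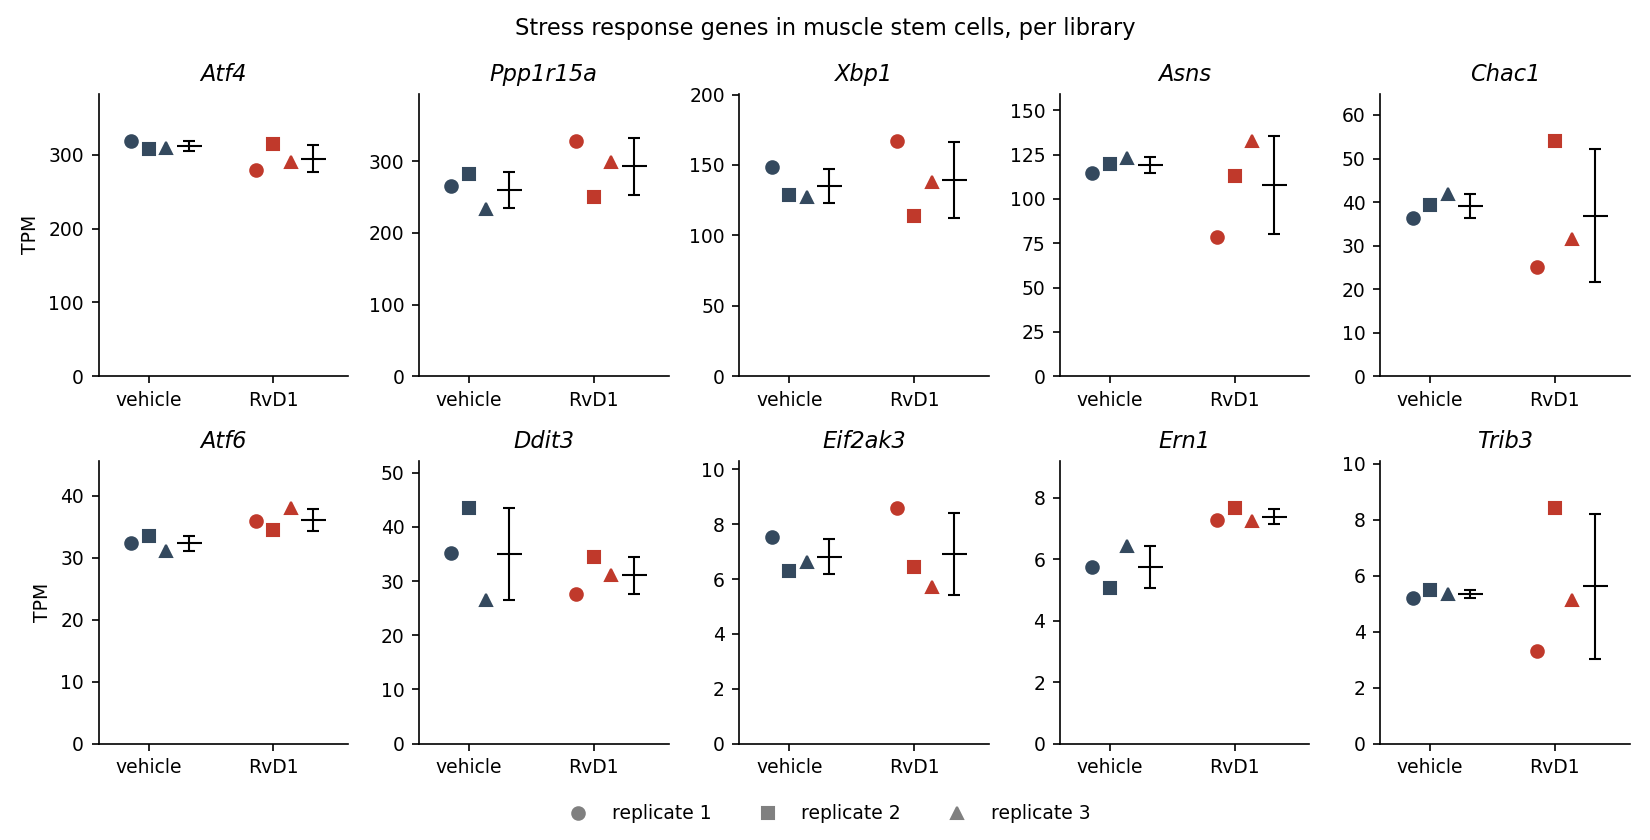
Levels of the 10 genes in TPM (linear axis from 0) in each library, ordered by mean level, with vehicle in dark blue and RvD1 in red; marker shapes give the replicate number and the black bars the mean ± SD of 3 mice. RvD1 replicates 1 and 2 lie at opposite ends for Chac1 and Trib3, while the RvD1 values of Ern1 (7.24 to 7.67 TPM) sit above those of vehicle (5.08 to 6.44 TPM).

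RvD1 was compared with vehicle by edgeR's quasi-likelihood test on expected counts, fitted over the 14494 genes with enough counts. All 10 members passed the count filter, and 0 of 10 had a Benjamini-Hochberg adjusted p under 0.05, as did 0% of all genes tested. None of the 10 reached an unadjusted p under 0.05 either, a level that 3.47% of all genes reached, and DESeq2 and limma-voom also gave 0 members at both levels. Of the members, 4 had a higher and 6 a lower fitted level with RvD1, with a median log2 fold change of -0.05 beside 0.01 over all genes. Without RvD1 replicate 1 that median was 0.0081, and 0 members were called at either level. Fold changes ran from -0.22 for Ddit3 to 0.18 for Ern1. The 95% intervals, which are not adjusted for the number of genes, lay between -1 and 1 on the log2 scale for all 10, so that a change of 2-fold or more was outside each of them. They were widest for Chac1 (-0.76 to 0.45) and Trib3 (-0.76 to 0.76) and narrowest for Atf6 (-0.12 to 0.27) and Atf4 (-0.37 to 0.05). Adjusted p values from edgeR were 0.971 for 7 members, 0.977 for Eif2ak3, 0.987 for Xbp1, and 0.999 for Trib3.

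**Figure D2:**
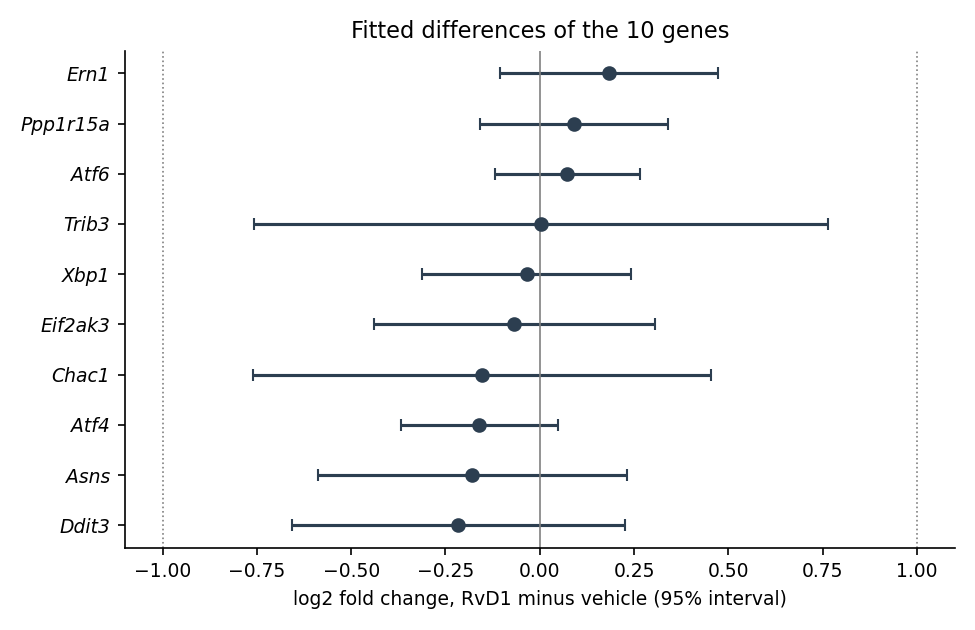
Fitted log2 fold change (RvD1 minus vehicle, x axis) of each gene with its 95% interval from edgeR's quasi-likelihood fit of 3 against 3 mice; dotted lines mark a change of 2-fold. Each interval includes 0 and none reaches a dotted line.

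Among the sensors, Ern1 was the gene whose groups came apart on both scales. Ern1 (ENSMUSG00000020715, chromosome 11 of GRCm38, 106394650 to 106487852, minus strand) encodes the kinase and endoribonuclease that splices Xbp1 mRNA. It was at 7.27, 7.67, and 7.24 TPM in RvD1 replicates 1, 2, and 3 and at 5.74, 5.08, and 6.44 TPM in vehicle replicates 1, 2, and 3. All 3 RvD1 libraries were above all 3 vehicle libraries, also as CPM normalized by the TMM method (19.1 ± 1.49 against 16.9 ± 0.528, SD, n = 3). Its log2 fold change was 0.18 (standard error 0.13, edgeR unadjusted p = 0.183, adjusted p = 0.971). On log2(TPM + 1) it was 0.32, and on log2(TPM + 0.1) it was 0.36. By TMM-normalized CPM, Ern1 was the only member with RvD1 above vehicle in every library, a pattern held by 4.8% of all genes tested.

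Atf6 (ENSMUSG00000026663, chromosome 1, 170704674 to 170867771, minus strand), the sensor that becomes a transcription factor on cleavage, was at 35.9, 34.4, and 38.0 TPM with RvD1 and at 32.4, 33.5, and 31.1 TPM with vehicle. The groups did not overlap as TPM, and the share of all genes with that pattern on the TPM scale was not computed. As TMM-normalized CPM the groups overlapped, at 156 ± 6.29 and 148 ± 6.75 (SD, n = 3). The log2 fold change was 0.07 (standard error 0.08). On log2(TPM + 1) it was 0.15, where the median over all genes was 0.08 against 0.01 in edgeR. Atf6 was the steadiest of the 10 genes, with a range of 0.18 on the log2 CPM scale over the 6 libraries, a smaller range than all but 4.1% of the genes tested.

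Eif2ak3 (ENSMUSG00000031668, chromosome 6, 70844515 to 70905245, plus strand), which encodes the eIF2α kinase PERK, was at 8.59, 6.45, and 5.73 TPM with RvD1 and at 7.53, 6.28, and 6.64 TPM with vehicle. RvD1 replicates 1 and 3 were the highest and the lowest of the 6 libraries, and both lay outside the vehicle range. For Eif2ak3 the log2 fold change was -0.07 (standard error 0.16). It was -0.22 without RvD1 replicate 1, and its sign turned (0.04) without RvD1 replicate 3. Some of its expected counts were fractional (487.03 in RvD1 replicate 2), which arises where reads are divided among genes.

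Atf4 was the only member with RvD1 below vehicle in every library by TMM-normalized CPM, a pattern held by 4.83% of all genes. Atf4 (ENSMUSG00000042406, chromosome 15, 80255184 to 80257541, plus strand) encodes the central transcription factor of the integrated stress response. It was at 272, 324, and 287 CPM in RvD1 replicates 1, 2, and 3 and at 326, 329, and 333 CPM in vehicle replicates 1, 2, and 3. RvD1 replicate 2 was within 2 CPM of the lowest vehicle library, and as TPM (279, 314, and 290.4 against 319, 307, and 309) it lay between the vehicle libraries. Its log2 fold change was -0.16 (standard error 0.09, edgeR unadjusted p = 0.115, adjusted p = 0.971). Without RvD1 replicate 2 it was -0.24 (edgeR unadjusted p = 0.0366, adjusted p = 0.725). On log2(TPM + 1) it was -0.08. Adjusted p values of Atf4 ran from 0.477 to 0.99998 over all alternatives. The 3 vehicle libraries were close to each other, with an SD of 3.50 CPM against 26.7 CPM with RvD1.

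Xbp1 (ENSMUSG00000020484, chromosome 11, 5520659 to 5525893, plus strand), whose spliced form encodes a transcription factor for chaperone and secretory genes, was at 167, 114, and 138 TPM with RvD1 and at 149, 129, and 127 TPM with vehicle. RvD1 replicate 1 was the highest and RvD1 replicate 2 the lowest of all libraries, so the vehicle values lay inside the RvD1 range. For Xbp1 the log2 fold change was -0.04 (standard error 0.12), and its sign depended on the scaling (0.0025 with library totals and 0.03 on log2(TPM + 1)). It was -0.16 without RvD1 replicate 1 and 0.0651 without RvD1 replicate 2.

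Ddit3 (ENSMUSG00000025408, chromosome 10, 127290774 to 127296288, plus strand) encodes CHOP, a partner of ATF4 in prolonged stress. It was at 27.7, 34.5, and 31.1 TPM with RvD1 and at 35.2, 43.5, and 26.5 TPM with vehicle, and the groups overlapped, the vehicle libraries spanning both the highest and the lowest TPM. Its log2 fold change of -0.22 (standard error 0.19) was the most negative among the members and moved to -0.04 without vehicle replicate 2 and to -0.37 without vehicle replicate 3. Expected counts of Ddit3 were fractional in every library (247.33 to 477.72). The GENCODE M21 annotation holds a second protein-coding Ddit3 model (ENSMUSG00000116429) that shares 2925 bases on the same strand. That model is not among the 49671 genes listed, so no counts are recorded for it. Which genes shared reads with Ddit3 was not tested. The last 68 bases of the locus overlap Mars, the methionyl-tRNA synthetase gene on the opposite strand (22170.53 expected counts in all), and because the cDNA kit does not mark strand, reads there cannot be assigned to either gene with certainty. Mars had a log2 fold change of -0.08.

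Ppp1r15a and Trib3 close feedback loops of the response. Ppp1r15a (ENSMUSG00000040435, chromosome 7, 45522916 to 45526268, minus strand) encodes GADD34, the subunit that directs a phosphatase to eIF2α and so restores translation. It was at 329, 250.1, and 299 TPM with RvD1 and at 265, 283, and 233 TPM with vehicle. RvD1 replicate 1 was the highest library and vehicle replicate 3 the lowest, and the groups overlapped. A log2 fold change of 0.09 (standard error 0.11) fell to -0.0048 without RvD1 replicate 1, the library in which the dissociation and immediate early genes were also highest. Their part in the Ppp1r15a level was not tested. The locus shares 717 bases with Tulp2 on the opposite strand, which had 72.22 expected counts in all.

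Trib3, Chac1, and Asns are among the known targets of ATF4. Over all 6 libraries their ranges were wider than those of the other 7 members, for Asns only with RvD1 replicate 1 included. Among the vehicle mice Ddit3 varied more (SD 0.33 on the log2 CPM scale, against 0.12, 0.14, and 0.13 for Trib3, Chac1, and Asns). Trib3 (ENSMUSG00000032715, chromosome 2, 152337422 to 152344032, minus strand) encodes a pseudokinase that restrains ATF4 and AKT signaling. Its expected counts were 84, 287, and 101 for the RvD1 mice and 96, 121, and 125 for the vehicle mice. As TMM-normalized CPM, RvD1 replicate 1 was the lowest library at 3.80 (95% exact Poisson interval 3.03 to 4.71, counting error only) and RvD1 replicate 2 the highest at 10.2 (9.09 to 11.5), with vehicle between 5.95 and 6.96. The group means were alike, at 6.55 ± 3.32 and 6.56 ± 0.541 CPM (SD, n = 3), for a log2 fold change of 0.0037 (standard error 0.34).

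Chac1 (ENSMUSG00000027313, chromosome 2, 119351229 to 119354381, plus strand), an enzyme that degrades glutathione, showed the same ordering of the RvD1 libraries. It was at 24.97, 54.1, and 31.6 TPM with RvD1 and at 36.3, 39.3, and 41.8 TPM with vehicle. RvD1 replicate 2 lay above and the other RvD1 replicates below every vehicle library. For Chac1 the log2 fold change was -0.15 (standard error 0.27), 0.08 without RvD1 replicate 1, and -0.58 without RvD1 replicate 2 (edgeR unadjusted p = 0.00705, adjusted p = 0.725, the lowest of its alternatives).

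Asns (ENSMUSG00000029752, chromosome 6, 7675169 to 7693254, minus strand) encodes asparagine synthetase. It was at 78.3, 113, and 133 TPM with RvD1 and at 114, 119.9, and 123 TPM with vehicle. Only RvD1 replicate 1 lay far from the rest, at 83.0 CPM (95% exact Poisson interval 79.2 to 86.9) where the other 5 libraries were at 120.1 to 141 CPM. A log2 fold change of -0.18 (standard error 0.18) became 0.02 without that library.

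Promoter sequence was examined next. RefSeq promoter windows (GRCm38.p6, 250 bases before to 50 after the start site) were at hand for 9 of the 10 members, Atf6 being the exception, and were searched on both strands for the C/EBP-ATF response element TGATGNAA, to which ATF4 dimers are known to bind. It was present in the windows of Chac1, Trib3, and Asns and in those of 0 of the other 6, against 3.97% of the 32851 windows listed for all genes. Since these 3 genes are known as ATF4 targets, a match there is no independent observation. Absence of a match in so short a window does not mark the other 6 as non-targets. The windows are shown with the element in capitals.

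Chac1, chr2:119350992-119351291, plus strand: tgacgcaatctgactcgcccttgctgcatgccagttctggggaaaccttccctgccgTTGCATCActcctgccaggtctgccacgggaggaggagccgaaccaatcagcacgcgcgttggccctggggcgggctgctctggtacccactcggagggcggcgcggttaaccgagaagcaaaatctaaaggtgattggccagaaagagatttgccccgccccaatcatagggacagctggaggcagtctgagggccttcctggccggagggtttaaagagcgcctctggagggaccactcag

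Trib3, chr2:152344011-152344310, minus strand: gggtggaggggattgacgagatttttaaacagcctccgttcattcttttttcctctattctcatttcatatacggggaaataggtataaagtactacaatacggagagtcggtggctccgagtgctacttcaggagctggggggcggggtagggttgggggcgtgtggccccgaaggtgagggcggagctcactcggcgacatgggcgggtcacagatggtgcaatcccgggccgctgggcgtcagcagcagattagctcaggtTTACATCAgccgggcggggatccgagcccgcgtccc

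Asns, chr6:7693160-7693459, minus strand: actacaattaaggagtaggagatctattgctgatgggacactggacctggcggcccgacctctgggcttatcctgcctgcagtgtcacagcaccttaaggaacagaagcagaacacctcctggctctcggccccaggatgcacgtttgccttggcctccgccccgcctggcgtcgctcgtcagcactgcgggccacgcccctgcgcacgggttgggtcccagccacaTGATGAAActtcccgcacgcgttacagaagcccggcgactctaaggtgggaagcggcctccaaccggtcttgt

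In Chac1 the element was read on the minus strand of the window, at positions -193 to -186 from the start site. In Trib3 it was also on the minus strand, at positions 14 to 21, and in Asns on the plus strand, at positions -23 to -16. Elements of the ER branches were searched in the same way. The ER stress response element (CCAAT and CCACG separated by 9 bases) was held by 0 of the 9 member windows and 0.119% of all windows, its second form (ATTGG and CCACG separated by 1 base) by 0 and 0.0365%, and the UPR element TGACGTGG by 0 and 0.676%. A match is a description of these letters, not evidence of binding, and elements outside the windows were not searched.

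The members did not all move the same way across libraries. As TMM-normalized CPM, RvD1 replicate 1 was the lowest of the 6 libraries for Atf4, Ddit3, Trib3, Asns, and Chac1 (5 of 10, beside 29.5% of all genes), and the highest for Xbp1, Eif2ak3, and Ppp1r15a (3 of 10, beside 30.6%). Relative to the gene's mean over the libraries, Trib3 was at -0.71, Chac1 at -0.64, and Asns at -0.58 log2 CPM in that library, while Xbp1 was at 0.22, Ppp1r15a at 0.22, and Eif2ak3 at 0.24. RvD1 replicate 2 was the highest for Trib3 (0.70), Chac1 (0.56), and Ern1 (0.20) and the lowest for Xbp1 (-0.24) and Ppp1r15a (-0.15). The ranges of Trib3 (1.41) and Chac1 (1.195) on the log2 scale exceeded those of 86.7% and 81.7% of the genes tested, where the median range was 0.56. The SD was larger with RvD1 than with vehicle for 8 of the 10 members, beside 69.6% of all genes. The exceptions were Ddit3 (0.19 with RvD1 and 0.33 with vehicle) and Atf6 (0.06 and 0.07).

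**Figure D3:**
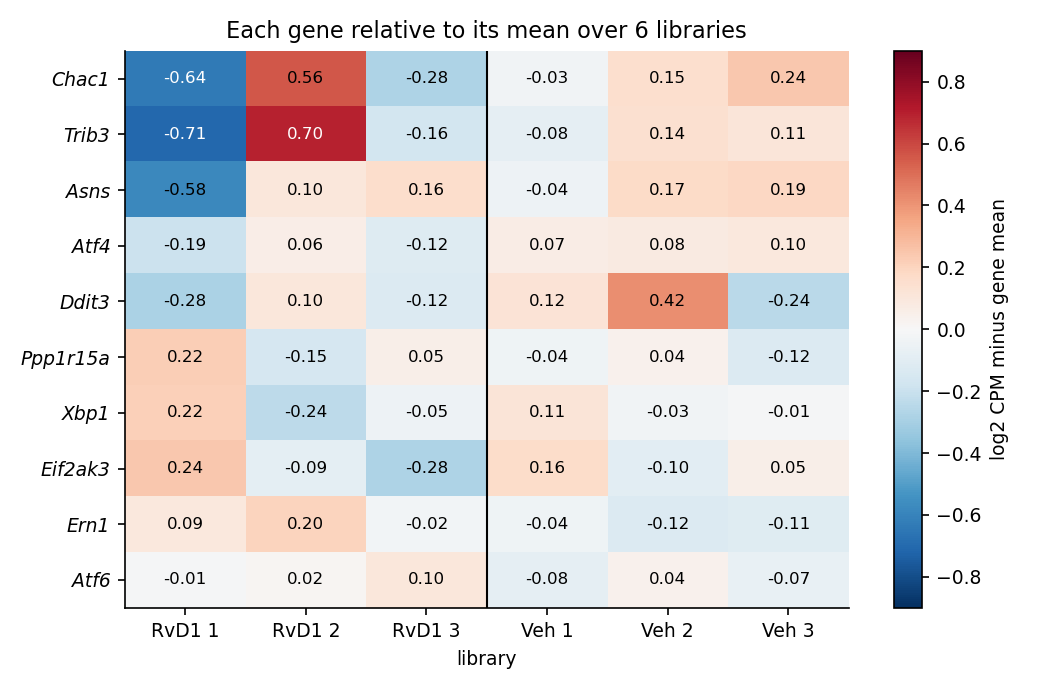
Level of each gene in each library relative to that gene's mean over the 6 libraries (log2 CPM, TMM-normalized; red above and blue below the mean), with RvD1 libraries left and vehicle libraries right of the line. RvD1 replicate 1 is low for Chac1, Trib3, and Asns (-0.64, -0.71, and -0.58) and RvD1 replicate 2 high for Chac1 and Trib3 (0.56 and 0.70), whereas vehicle values stay between -0.24 and 0.24 apart from Ddit3 in replicate 2 (0.42).

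Beyond the members, 149 further genes of these pathways in 9 lists were examined, of which 145 were tested. In edgeR 0 had an adjusted p under 0.05, and 2 had an unadjusted p under 0.05, or 1.38% beside 3.47% of all genes. These were Pdgfrb, higher with RvD1, and Ssr4, lower. Groups did not overlap for 3 genes with RvD1 higher and 3 with RvD1 lower, or 2.07% in each direction beside 4.8% and 4.83% of all genes. The fitted level was higher with RvD1 for 52 genes and lower for 93, with a median log2 fold change of -0.05 beside 0.01 over all genes. The same split was not computed for all genes. Several list medians changed sign on log2(TPM + 1) or without RvD1 replicate 1, as given below. The 16 dissociation and immediate early genes, which are not part of these pathways, formed a list of their own.

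Lists downstream of ATF6 and XBP1 lay near 0. Of 21 ER chaperones and folding enzymes, 5 were higher and 16 lower with RvD1 (median -0.06, turning to 0.0176 without RvD1 replicate 1 and to 0.03 on log2(TPM + 1)). Hspa5, which encodes the chaperone BiP and was the most abundant of them, averaged 1304 ± 114 TPM in the RvD1 group and 1280 ± 75.1 TPM in the vehicle group (SD, n = 3), a log2 fold change of -0.08 from the counts. Txndc11 (0.18) and Pdia5 (-0.26), both of the disulfide isomerase family, had the smallest unadjusted p in each direction. Of 16 ER-associated degradation genes, 7 were higher and 9 lower (median -0.0089, and 0.04 without RvD1 replicate 1), with the segregase gene Vcp (-0.08) the most abundant and Os9 (0.27) and Selenos (-0.10) the leading genes. Of 18 translocation and secretory genes, 6 were higher and 12 lower (median -0.06, and 0.014 on log2(TPM + 1)). There the leading genes were Sec24d (0.11), a coat protein of ER export, and Ssr4 (-0.23), a subunit of the translocon-associated complex. Ssr4 was at 160.1, 160.4, and 155 TPM with RvD1 and at 179, 169.8, and 177 TPM with vehicle, and the groups did not overlap (edgeR unadjusted p = 0.0284, adjusted p = 0.971). Spcs1, a signal peptidase subunit and the most abundant of this list, had a log2 fold change of -0.13. Among 11 further sensors and activators, 5 were higher and 6 lower (median -0.03, and 0.17 on log2(TPM + 1)), from Rtcb (-0.18), the ligase that joins the Xbp1 exons and the most abundant of this list, to Mbtps1 (0.18), a protease that cleaves ATF6, as the genes with the smallest unadjusted p. The 6 transcripts known as substrates of IRE1-dependent decay had a median of 0.19, which became -0.07 without RvD1 replicate 1. They include Sparc (0.23), Pdgfrb (0.66), and Hgsnat (-0.10), and Sparc was at 1865 TPM in RvD1 replicate 1 and at 996.5 to 1179 TPM in the other libraries. Sparc and Pdgfrb are also expressed by stromal cells, and 6 of the 9 fibro-adipogenic markers tested were highest in the same library (Dcn 450.3 TPM against 182 to 284 TPM). Ly6a, which encodes the Sca-1 antigen discarded in the sort, was not among them, at 25.4 TPM there and 26.3 to 39.7 TPM in the vehicle libraries, and it was lower with RvD1 in all 3 libraries (log2 fold change -0.62). The part of such cells in the values was not tested.

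**Figure D4:**
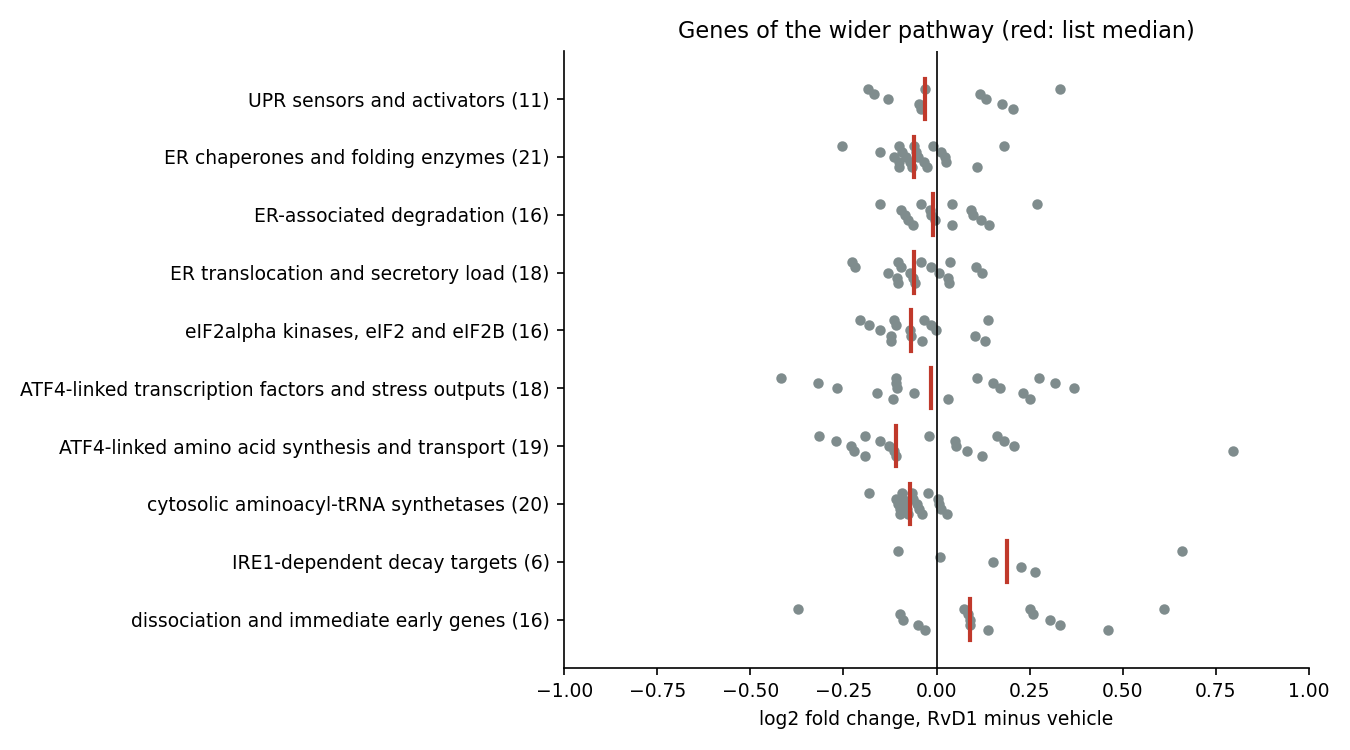
Fitted log2 fold change (RvD1 minus vehicle, x axis) of every tested gene in 9 lists of the wider pathway and in the list of dissociation and immediate early genes, with the number of genes in brackets; each gray point is a gene and the red bar the list median. List medians run from -0.11 (amino acid synthesis and transport) to 0.19 (6 IRE1-dependent decay targets), and the points lie on both sides of 0 in every list.

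Amino acid genes and tRNA synthetases, some of them downstream of eIF2α and ATF4, were low in RvD1 replicate 1. Asns, Chac1, and Trib3 were also lowest there. Low levels in that library were not particular to these lists. Of the 21 ER chaperones and folding enzymes, 13 were lowest there, beside 29.5% of all genes. The count was 7 of 18 for translocation and secretory genes and 4 of 16 for ER-associated degradation genes. Of 19 genes for amino acid synthesis and transport, 8 were higher and 11 lower with RvD1 (median -0.11), and 13 of the 19 had their lowest level in RvD1 replicate 1. Phgdh, which encodes the entry enzyme of serine synthesis, was the most abundant, at 319, 506, and 560.0 TPM with RvD1 and at 488, 498, and 511 TPM with vehicle. Psph (-0.32), a later enzyme of that pathway, and Slc7a11 (0.80), a cystine transporter below 0.5 TPM in every library, were the leading genes. All 20 cytosolic aminoacyl-tRNA synthetases, which charge tRNAs and only some of which are known ATF4 targets, were lowest in RvD1 replicate 1. The share over all genes tested was 29.5%. The synthetase levels in that library were 0.33 below the gene mean on the log2 scale at the median. Their median log2 fold change was -0.07 with 4 higher and 16 lower. It was 0.06 without that library and 0.03 on log2(TPM + 1). The amino acid list likewise moved from -0.11 to 0.05. Dars (-0.09) was the most abundant synthetase, and Cars (0.03) and Hars (-0.18) had the smallest unadjusted p in each direction. Of 16 genes for eIF2α kinases, eIF2, and eIF2B, 12 were lowest in RvD1 replicate 1, 3 were higher and 13 lower with RvD1, and the median was -0.07. That median was -0.0082 without RvD1 replicate 1 and 0.0455 on log2(TPM + 1). The phosphatase catalytic subunit Ppp1ca (-0.11) was the most abundant of these, and Impact (0.14), an inhibitor of the kinase GCN2, and Eif2s2 (-0.21), a subunit of eIF2, led in each direction.

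Transcription factors and stress outputs linked to ATF4 were not mainly low in that library. Of 18, 9 were higher and 9 lower with RvD1 (median -0.01), and RvD1 replicate 1 was the lowest library for 6 and the highest for 6. Nfe2l2 (-0.11), the antioxidant transcription factor, was the most abundant, and Vegfa (0.17) and the death gene Bbc3 (-0.27) were the leading genes. The 16 dissociation and immediate early genes had 11 members higher and 5 lower with RvD1 (median 0.09), and 12 of 16 were highest in RvD1 replicate 1, beside 30.6% of all genes. Without it their median was -0.05. Klf6 (0.08) was the most abundant. Btg2 was at 47.9, 23.2, and 29.3 TPM with RvD1 and at 21.7, 18.2, and 21.7 TPM with vehicle, above vehicle in all 3 libraries (log2 fold change 0.61, edgeR unadjusted p = 0.0245, adjusted p = 0.971). Klf4 was at 26.0, 24.9, and 24.9 TPM with RvD1 and at 29.8, 34.4, and 27.3 TPM with vehicle, below vehicle in all 3 (log2 fold change -0.37, edgeR unadjusted p = 0.00903, adjusted p = 0.971).

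**Figure D5:**
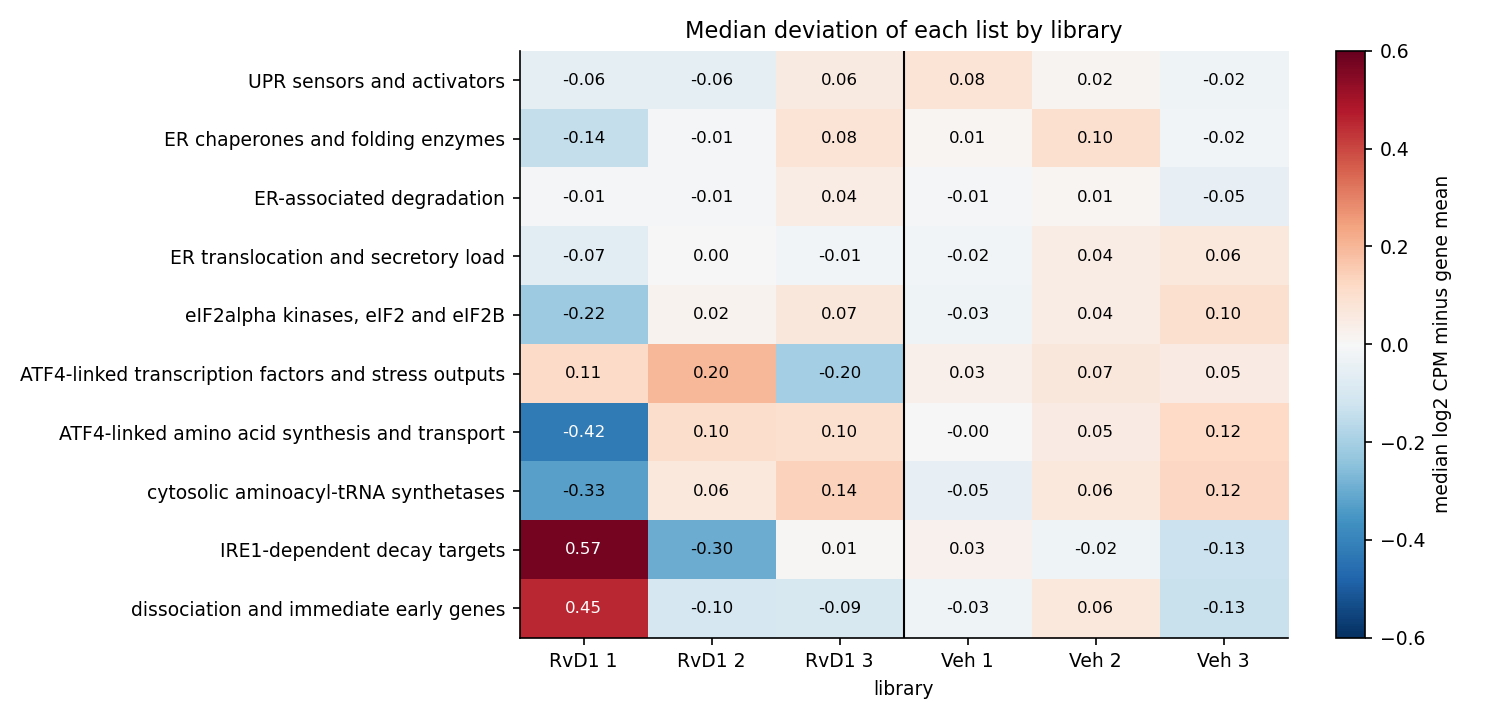
Median over the tested genes of each list of the level in a library relative to the gene's mean (log2 CPM, TMM-normalized), with RvD1 libraries left and vehicle libraries right of the line. RvD1 replicate 1 is low for amino acid synthesis and transport (-0.42) and aminoacyl-tRNA synthetases (-0.33) and high for IRE1-dependent decay targets (0.57) and immediate early genes (0.45), while the 3 vehicle libraries stay between -0.13 and 0.12 for every list.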

How the data were processed

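RNA-Seq files of 6 libraries, 3 mice per group, were analysed. Per the labels and the study's methods, reads were single-ended, and the authors used STAR 2.5.0a with the mm10 genome and RSEM. Expected counts were deposited without depth scaling, and reads that match several genes are divided in them. TPM and FPKM were deposited as RSEM gives them, corrected for length and library size. After removal of 1 stray header line, expected counts were rounded and tested with edgeR 4.0.16 in R 4.3.3 (TMM, filterByExpr, quasi-likelihood), with Benjamini-Hochberg adjustment over all 14494 genes tested. Group tests compared RvD1 with vehicle, and n is mice. Standard errors came from the fold change and its F statistic, and log2 CPM used a prior count of 2. The paper's limma-voom procedure with sva 3.50.0 (limma 3.58.1, 1 surrogate variable removed), DESeq2 1.42.0, other scalings, filters, and units, a replicate block, and leaving out each library were alternatives. The edgeR, DESeq2, limma-voom, and limma functions were run on counts with known changes beforehand. Those runs did not include surrogate variables, the replicate block, or the other edgeR variants.

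The members and gene lists were chosen with earlier results of these data known. In each list, the most abundant gene, the higher and the lower gene of smallest unadjusted p, and any gene past an adjusted p of 0.05 are named; other named markers were chosen for their sort or cell type. List symbols absent from the files were matched through RefSeq synonyms. Positions are from GENCODE M21 on GRCm38. Promoter windows are from RefSeq (GRCm38.p6).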

Additional observations from a re-analysis of the deposited data

How the results depend on the processing

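The number of members with an adjusted p under 0.05 was 0 in edgeR and stayed 0 under all 17 alternatives, including edgeR without a count filter, which called 12 other genes, and limma-voom with 1 surrogate variable removed. An unadjusted p under 0.05 was found only without RvD1 replicate 2, for Atf4 and Chac1. The median log2 fold change of the members was -0.05 and ranged from -0.14 to 0.01 with 1 library left out. Libraries that share a replicate number correlated at 0.310, -0.001, and 0.126 after removal of group means, so the numbers were not taken as pairs. With the replicate number as a block, 0 members were called, the median was -0.09, and Trib3 was at -0.10. TPM moved the median of all genes from 0.01 to 0.08 on log2(TPM + 1), and no scaling moved it by more than 0.1.

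Atf4, Ddit3, Atf6, and Ern1 kept their direction under all alternatives (Ddit3 from -0.37 to -0.04 and Ern1 from 0.13 to 0.36), and the other 6 members did not. For Trib3 (0.0037) the sign turned with DESeq2 (-0.0021), RLE factors (-0.0006), limma-voom without surrogate variables (-0.0302), log2(TPM + 1) with or without a filter (-0.0124), and log2(TPM + 0.1) (-0.0289). For Xbp1 it turned with library totals (0.0025), log2(TPM + 1) with or without a filter (0.0321), and log2(TPM + 0.1) (0.0322), and for Eif2ak3 with log2(TPM + 1), filtered or not (0.0064), and log2(TPM + 0.1) (0.0055). With 1 library left out, values ranged from -0.49 to 0.28 for Trib3, -0.58 to 0.0803 for Chac1, -0.31 to 0.021 for Asns, -0.16 to 0.0651 for Xbp1, -0.22 to 0.0418 for Eif2ak3, and -0.0048 to 0.18 for Ppp1r15a. The cause was not tested. Trib3 rested on the fewest counts (84 to 287 per library).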
